A study of Triticum aestivum with 18 samples.

Results

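The flag leaf of bread wheat (Triticum aestivum) was compared between plants whose whole spike had been taken off and plants left to grow normally. Levels are FPKM, that is fragments counted on a gene divided by its length in kilobases and scaled to the fragments mapped in the library. A gene was followed if 3 or more of the 6 libraries compared had an FPKM of 1 or higher. This held for 46758 of the 115478 genes in the table. All samples were taken at the grain filling stage, and poly(A) RNA was sequenced in pairs of reads. The study held 18 libraries of flag leaves and grains. The whole removal group and the control group had 3 flag leaf libraries each, and the other 3 leaf libraries had lost 0.5 of the spike, here called partial removal. No cultivar, plant age or time between cutting and sampling is given in the labels, nor whether each library was made from a plant of its own, and p-values measure only the spread between these samples. No group is labelled as cut without loss of spike tissue, so wounding and the loss of the grains cannot be told apart. In whole leaves, fewer cells of a type and less RNA per cell cannot be told apart either.

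The flag leaf is the uppermost leaf of the wheat plant and a main source of sugar for the growing grains. During grain filling it fixes carbon and exports sucrose, and as it ages it takes apart its proteins, membranes and chlorophyll and sends the nitrogen and phosphorus to the grains. The spike is the main sink for both streams, and sugars that are not exported can be kept in the leaf as starch or, in wheat, as fructan.

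Unnamed loci held a larger part of the summed FPKM after whole removal, at 30.9% ± 4.53 (SD, n = 3), than in control leaves, at 15.9% ± 3.30. Values were therefore scaled between libraries by the median ratio over genes, and with ratios taken over named genes only, 9946 genes passed the test in place of 9787. The 14 Rubisco small chain loci, markers of leaf mesophyll, summed to between 618 and 3090 FPKM in control leaves and between 2150 and 5380 after whole removal, and the groups overlapped. The 18 loci of gliadin, glutenin, avenin and globulin, the storage proteins of the grain, summed to 38.7 and 57.8 FPKM in control libraries 2 and 3 and to at most 0.591 in the other 4 libraries. None of the 18 passed the filter. Their part in other differences was not tested. Libraries of one group differed by a median of 0.153 to 0.276 on the log2 scale over genes, and libraries of different groups by 0.334 to 0.385.

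Removal of the whole spike was followed by a broad response. At an adjusted p under 0.05 (limma, Benjamini-Hochberg over all genes tested), 9787 genes, or 20.9%, differed between the groups. Of these 5097 rose (10.9% of genes tested) and 4690 fell (10%). Without any scaling 3634 rose and 7398 fell, the median over all genes moved from -0.01 to -0.15 on the log2 scale, and 8322 of the 9787 genes were still called, each in the same direction. A change of at least 2-fold was called for 3776 genes (8.08%), with 2127 higher (4.55%) and 1649 lower (3.53%), and a change of at least 4-fold for 489 that rose and 303 that fell. The values of the groups did not overlap for 17891 genes (38.3%). The number of calls was 6216 without control library 1 and 6439 without whole removal library 2.

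**Figure D1:**
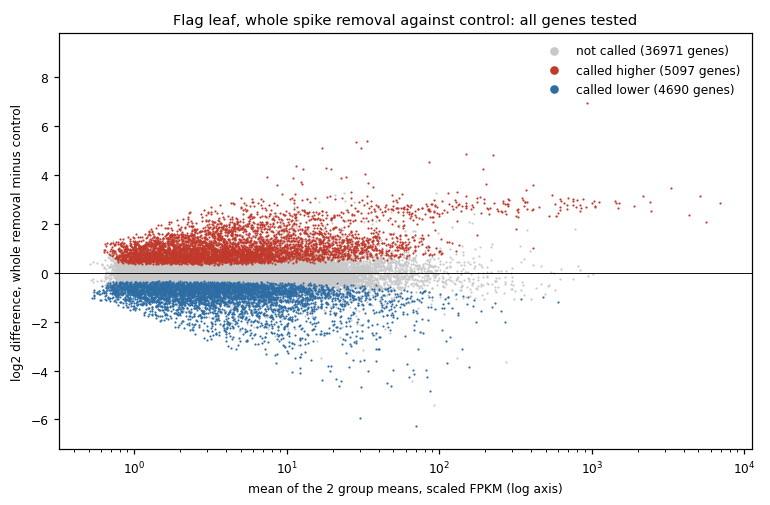
Each point is 1 of the 46758 genes tested, placed by the mean of its group means (horizontal, scaled FPKM, log axis) and by the log2 difference of whole removal minus control (vertical). Red points are the 5097 genes called higher and blue points the 4690 called lower, and the strip of red points at the highest levels is made mainly of loci without a gene name.

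Rises were called more often among strongly expressed genes. Of the 345 genes with a mean of over 100 scaled FPKM, 125 rose (36.2%) and 32 fell (9.28%). Of those 125, 106 had no gene name and 7 belonged to the list of ribosomal proteins. Among genes under 2 scaled FPKM 8.59% rose and 8.3% fell. Of the genes on A, B and D chromosomes 10.7%, 10.1% and 10.1% were higher and 10.5%, 10.3% and 10.4% lower.

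The largest rise among the described genes named here was that of a fructan enzyme. Sucrose:fructan 6-fructosyltransferase (MSTRG.34298, 4AL), which lengthens fructan chains from sucrose, stood at 345, 520 and 411 scaled FPKM after whole removal and at 31.7, 28.6 and 2.30 in control leaves. All 3 libraries after removal lay far above the controls, and control library 3 lay below the other controls. The difference was 4.83 ± 0.80 (SE) on the log2 scale with an adjusted p of 0.00386 (limma). It was the single riser in the fructan list, where 2 of the 4 tested members fell, each at least 2-fold, and the median was -0.90. Isoamylase 1 (MSTRG.66763, 7AS), a chloroplast enzyme that trims branches during starch synthesis, rose from 1.93, 1.75 and 1.32 to 9.25, 9.86 and 11.7. Alpha-glucan phosphorylase 1 (MSTRG.44132), which adds or removes glucose at the ends of starch chains, rose by 2.21 ± 0.21. After partial removal isoamylase 1 stood at 3.26, 2.13 and 2.11, above the control mean of 1.67 and well below whole removal. In the list of starch metabolism 14 of 71 tested members rose (19.7%) and 3 fell (4.23%), against 10.9% and 10% of all genes. The median of that list, 0.10, turned to -0.06 without scaling. The cytosolic maltose enzyme 4-alpha-glucanotransferase DPE2 rose in all 3 homoeologs, which together held 42.6, 41.1 and 39.8 scaled FPKM against 16.2, 13 and 9.16.

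Enzymes and proteins of the cell wall and its precursors were among the largest changes in both directions. Xyloglucan endotransglucosylase/hydrolases cut and rejoin xyloglucan in growing walls. Of 82 loci 12 passed the filter, and of these 5 rose and 3 fell. A locus could pass through the 3 libraries of 1 group alone, so the tested members favour loci that are high in either group. The copy on 7AL (MSTRG.65574) stood at 36.1, 22.1 and 14.6 scaled FPKM against 0.935, 1.28 and 0.580 in control leaves (log2 3.64 ± 0.41, adjusted p = 0.0007 in limma). The copy on 2DL (MSTRG.18822) went the other way, with 0.640, 0.465 and 0.103 against 15.4, 20.3 and 36.7 (log2 -4.09 ± 0.39, adjusted p = 0.000337 in limma). Neither pair of groups overlapped. After partial removal the 7AL copy stood at 7.91, 5.23 and 2.13, between the other groups. Phenylalanine ammonia-lyase, the entry enzyme of lignin and flavonoid synthesis, had 6 of 43 loci tested, with the same limit. It rose in 5 of these 6 by 1.27 to 2.64, and in the copy on 2DL (MSTRG.20466) from 1.17, 1.92 and 0.521 to 10.3, 16.5 and 10.8. The list of phenylpropanoids and lignin did not rise as a whole, with 5 of 28 tested members higher and 4 lower and a median of -0.09. Its lower count was 2 without control library 1. UDP-arabinopyranose mutase 3, which supplies arabinose units to wall polymers, rose in all 3 copies. In the whole cell wall list 30 of 136 members rose and 16 fell, against 10.9% and 10% of all genes.

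**Figure D2:**
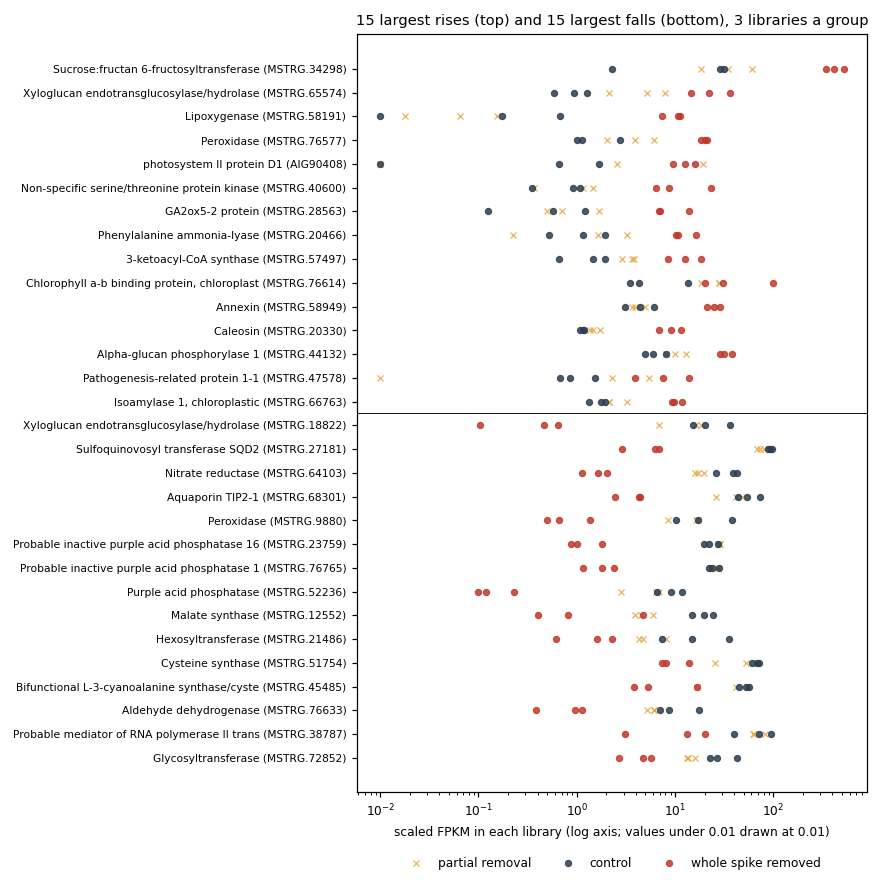
Scaled FPKM in each library (horizontal, log axis) for the 15 largest rises and the 15 largest falls among called, described genes whose groups do not overlap. Dots are whole removal (red) and control (dark) libraries and crosses are partial removal libraries, 3 of each. The red dots lie right of the dark ones in the upper block, as for the fructosyltransferase at 345 to 520 against 2.30 to 31.7, and left of them in the lower block.

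Other large rises were those of a lipoxygenase and a gibberellin-inactivating enzyme. The lipoxygenase on 6AS (MSTRG.58191), of a family that oxygenates fatty acids, stood at 10.8, 7.36 and 11.2 scaled FPKM, while the controls were 0.175, 0.683 and a library listed at 0 (log2 3.08 ± 0.21). Its values after partial removal were 0.153, 0.0654 and 0.0178, with no library near those after whole removal. The gene described as GA2ox5-2 protein (MSTRG.28563, 3B), of the gibberellin 2-oxidases, rose from 0.126, 0.571 and 1.20 to 6.94, 14.0 and 6.97. Annexin MSTRG.58949, of a family of calcium-dependent membrane-binding proteins, rose by 2.26 ± 0.22, and caleosin MSTRG.20330, an oil body protein, by 2.21 ± 0.16. Another caleosin (MSTRG.62429, 6DL) fell from 11.3, 8.95 and 15.1 to 5.12, 6.13 and 8.0 (adjusted p = 0.0498 in limma). That call held in 2 of 6 fits without 1 library. A 3-ketoacyl-CoA synthase (MSTRG.57497), of a family that lengthens very long chain fatty acids, as for wax, rose by 2.57 ± 0.28. Very-long-chain enoyl-CoA reductase fell in all 3 homoeologs, at -0.81 to -0.52, with 1 to 3 lower when 1 library was left out. In the list of lipid transfer, wax and cuticle 1 of 29 tested members rose (3.45%, against 10.9% of all genes). In that list 9 fell (31.0%, against 10%), with a median of -0.32. The lower count was 5 without control library 1 or 2 or whole removal library 2. The rises of photosystem II protein D1 (AIG90408) and pathogenesis-related protein 1-1 (MSTRG.47578) had adjusted p of 0.0415 and 0.0416 in limma. The call of AIG90408 was lost on leaving out any 1 of the 6 libraries, and that of MSTRG.47578 on leaving out any but whole removal library 1. AIG90408 stood at 12.7, 15.9 and 9.46 against 0, 1.68 and 0.653, and after partial removal at 0, 19.4 and 2.54. How evenly poly(A) sequencing catches the RNA of this plastid gene was not tested, so its rise may not reflect its level in the leaf.

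Genes of ribosomal proteins rose widely. Of 716 tested ribosomal protein genes 455 rose (63.5%, against 10.9% of all genes) and 6 fell. The median log2 difference was 0.89 against -0.01 over all genes. The list took 5.28%, 5.88% and 5.49% of the FPKM on named loci after whole removal and 2.90%, 2.81% and 3.30% in control leaves, so the groups did not overlap. After partial removal it took 2.88%, 2.70% and 2.52%. Of the 93 members described as 40S or 60S proteins, which build the cytosolic ribosome, 77 rose and none fell, with a median of 1.09. Of the 79 described as plastid or mitochondrial proteins 31 rose and none fell, with a median of 0.79. Of 15 loci described as ribosomal protein L37 or L37a, 14 rose. The 3 homoeologs of 40S ribosomal protein S27 on group 7 chromosomes together held 141, 173 and 152 scaled FPKM against 52, 45.9 and 65.8. The number of members that rose was between 361 and 447 when 1 library was left out. The 6 that fell were 2 without control library 1 and 3 without whole removal library 1.

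Assembly factors of the ribosome moved the same way in smaller numbers. Of 187 genes of ribosome biogenesis and rRNA processing 51 rose (27.3%) and 2 fell (1.07%), but 33 rose without control library 1 and 32 without whole removal library 2. The term RNA methylation held 11 of 34 genes that rose and none that fell, and 7 rose without whole removal library 2. A subunit of the H/ACA ribonucleoprotein complex (MSTRG.28295), which guides pseudouridine formation in rRNA, rose from 1.92, 1.25 and 3.18 to 6.52, 7.32 and 7.22 scaled FPKM (log2 1.41 ± 0.21). Of 175 translation factors 21 rose and 1 fell, near the 10.9% of all genes, and 9 rose without control library 1 or 2 or without whole removal library 1 or 2. Aminoacyl-tRNA synthetases had 14 of 149 higher (9.4%) and 10 lower (6.71%), both under the shares of all genes, 10.9% and 10%. Their median of 0.13 turned to -0.03 without scaling. Without control library 1, 2 or 3 or whole removal library 1 or 2, the higher count was 6, 4, 9, 5 and 5. Without control library 1 or whole removal library 2 or 3 the lower count was 5, 6 and 5.

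**Figure D3:**
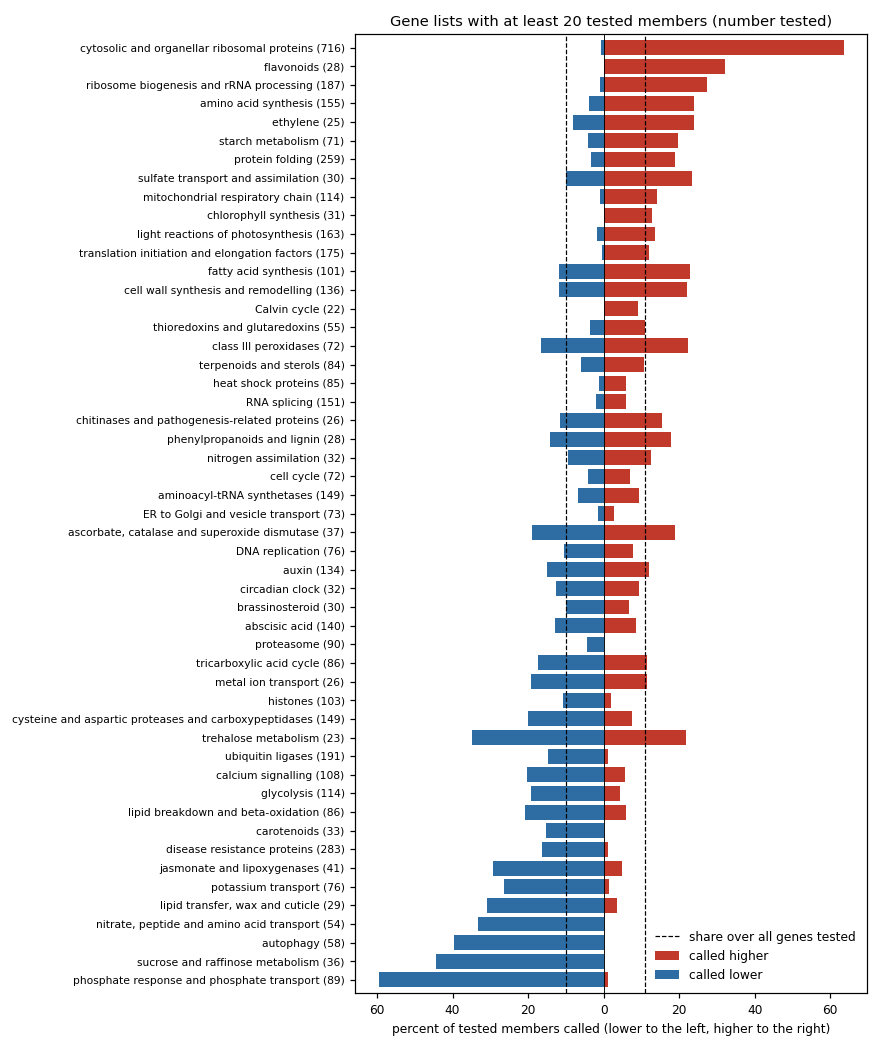
Percent of tested members called higher (red, to the right) and called lower (blue, to the left) for each gene list with at least 20 tested members, with the number tested in brackets. Dashed lines mark the shares over all genes tested, 10.9% higher and 10% lower. Ribosomal proteins stand at the top with 63.5% higher, and phosphate response stands at the bottom with 59.6% lower.

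Genes of amino acid synthesis, which in plants takes place largely in plastids, were called higher more often than lower. Under the term branched-chain amino acid biosynthesis 14 of 29 genes rose (48.3%, against 10.9% of all genes) and none fell. There were 10 to 15 higher when 1 library was left out. Branched-chain-amino-acid aminotransferase, the last enzyme of the leucine, isoleucine and valine pathways, rose in 6 of 8 copies, and in 3 copies without control library 1 or 3 or without whole removal library 1 or 3. The 3 copies on group 4 chromosomes together held a mean of 36.7 scaled FPKM after whole removal against 8.95 in control leaves, where no library exceeded 11.0. All 3 tested copies of 3-isopropylmalate dehydrogenase, a leucine pathway enzyme, rose by 0.50 to 1.05. In histidine synthesis 8 of 21 genes rose (38.1%) and 1 fell, with 5 higher without control library 1 and without whole removal library 3. The histidine enzyme hisIE rose in its 3 homoeologs, which together held 10.3, 9.27 and 9.59 against 3.22, 4.18 and 3.29. Arginine synthesis had 7 of 21 higher (33.3%) and 1 lower, and lysine synthesis through diaminopimelate had 9 of 29 higher (31.0%) and 2 lower. The lysine count was 5 without control library 3 and without whole removal library 1 or 2.

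The full list of amino acid synthesis had 37 of 155 members higher (23.9%) and 6 lower (3.87%), against 10.9% and 10% of all genes. Its share of the FPKM on named loci was nevertheless lower, at 0.595% ± 0.0182 (SD, n = 3) against 0.668% ± 0.0368 in control leaves. The members that fell included 3 cysteine synthase loci. The mitochondrial enzyme described as bifunctional L-3-cyanoalanine synthase/cysteine synthase C1, which removes cyanide formed with ethylene, stood in its 5BL copy (MSTRG.47742) at 43.7, 27.6 and 26.5 scaled FPKM against 183, 204 and 220 (log2 -2.63 ± 0.22). Cysteine synthase MSTRG.51754 on 5DL stood at 13.9, 7.34 and 8.11 against 71.1, 68.3 and 61.1, and the 5AL copy MSTRG.45485 at 16.8, 3.82 and 5.33 against 52.5, 57.0 and 45.1. These 3 loci on group 5 long arms fell by 2.63 to 2.70, and no other of the 11 tested cysteine synthase loci was called.

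In nucleotide metabolism genes changed in both directions. Nucleoside diphosphate kinase, which passes phosphate between nucleotides, rose in 9 of 13 tested copies by 0.51 to 1.42 and fell in none. The copy on 1DL (MSTRG.8748) stood at 48.6, 61.7 and 44.8 scaled FPKM against 21.5, 21.1 and 18.1. CTP synthase, which makes CTP from UTP, fell in 4 of 11 copies and rose in none. Its copy on 1DL (MSTRG.8226) stood at 2.80, 2.30 and 2.95 against 16.7, 14.9 and 17.5 (log2 -2.23 ± 0.14, adjusted p = 5.21e-05 in limma). Uridine kinase, a salvage enzyme, fell in 3 homoeologs on group 7 chromosomes, which together held 18.7, 21.9 and 22.3 against 76.3, 65.7 and 85.4. After partial removal that sum was 79.8 on average, close to the control mean of 75.8. Purine nucleotide synthesis had 9 of 24 genes higher (37.5%, against 10.9% of all genes) and none lower. It had 5 higher without control library 1 or whole removal library 1.

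Genes of protein folding were called higher more often than lower, and those of protein degradation lower more often than higher. Of 259 genes of protein folding 49 rose (18.9%) and 9 fell (3.47%), against 10.9% and 10% of all genes. The higher count was 30 without control library 1, 31 without control library 2 and 25 without whole removal library 2, the lower count was between 2 and 5 without any 1 of the 6 libraries, and the median of 0.14 turned to -0.03 without scaling. The 3 homoeologs of protein disulfide-isomerase on group 4 chromosomes, an enzyme that forms disulfide bonds in secreted proteins, together held 181, 196 and 190 scaled FPKM against 88.2, 76.1 and 94.5. The chloroplast 20 kDa chaperonin and chaperonin 60 subunit beta 4, which fold newly imported proteins, rose in all 3 homoeologs, by 0.75 to 0.94 and by 0.77 to 0.86. The signal recognition particle directs new proteins to membranes, and 8 of 23 genes of this term rose, but 2 without control library 1 and 3 without control library 2 or whole removal library 1 or 2.

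Autophagy carries cell contents to the vacuole and is active in ageing leaves. Of its 58 tested genes 23 fell (39.7%, against 10% of all genes) and none rose, with a median of -0.44. The count was 10 without control library 1, 14 without whole removal library 2 and 12 without whole removal library 3. Its share of the FPKM on named loci was 0.116% ± 0.00151 (SD, n = 3) after whole removal and 0.223% ± 0.0348 in control leaves, with 0.190% ± 0.0358 after partial removal. Autophagy-related protein 3, which attaches ATG8 to lipid in yeast and Arabidopsis, fell in 3 homoeologs that together held 23, 24.5 and 14.9 scaled FPKM against 43.7, 35.5 and 48.7. The gene described as autophagy-related protein on 2DL (MSTRG.18770) stood at 6.58, 6.42 and 4.42 against 16.3, 15 and 22.3 (log2 -1.47 ± 0.21). Of 149 cysteine and aspartic proteases and carboxypeptidases 30 fell (20.1%) and 11 rose (7.38%), against 10% and 10.9% of all genes. There were 19 lower without control library 1, 7 higher without whole removal library 1 and 6 higher without whole removal library 2. Carboxypeptidase MSTRG.21827 fell from 5.83, 5.07 and 6.84 to 1.06, 1.39 and 1.58. Among 191 ubiquitin ligases 28 fell (14.7%, against 10% of all genes) and 2 rose (1.05%, against 10.9%). The 90 proteasome genes had 4 lower and none higher, under the 10% of all genes, and the lower count was 1 without control library 2, 2 without control library 3 and 1 without whole removal library 2.

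Genes of phosphate response and phosphate transport fell more widely than any other list with at least 20 tested members. Of 89 tested genes 53 fell (59.6%, against 10% of all genes) and 1 rose, with a median of -1.06. The lower count was 48 to 50 when 1 library was left out. The list took 0.220% ± 0.0173 (SD, n = 3) of the FPKM on named loci after whole removal, 0.780% ± 0.0167 in control leaves and 0.673% ± 0.114 after partial removal. Purple acid phosphatases release phosphate from organic compounds, and of 40 tested genes 28 fell and 1 rose. Probable inactive purple acid phosphatase 16 (MSTRG.23759, 3AL) stood at 1.82, 1.01 and 0.880 scaled FPKM against 27.2, 19.8 and 22.1, and after partial removal at 28.8, 28.9 and 27.6. The 3 homoeologs of purple acid phosphatase 10 together held 10.2, 12.6 and 13.9 against 66.0, 70.8 and 79.8. A gene of another role, probable ubiquitin-conjugating enzyme E2 24, fell in 3 homoeologs, with summed values of 21.1, 28.1 and 28.6 against 160, 128 and 159. Known in Arabidopsis as PHO2, it is needed there for the turnover of phosphate transporters, and so limits phosphate uptake. In each case the partial removal mean was near the control mean, at 72.0 against 72.2 for purple acid phosphatase 10 and at 129 against 149 for the conjugating enzyme.

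Enzymes of 3 steps of sulfolipid synthesis fell. Plants replace membrane phospholipids with sulfolipid and galactolipid when phosphate is short. The plastid UTP--glucose-1-phosphate uridylyltransferase 3, which in Arabidopsis supplies UDP-glucose for sulfolipid, fell in 3 homoeologs with summed values of 15.4, 8.40 and 15.1 scaled FPKM against 60.8, 55.2 and 43.1. UDP-sulfoquinovose synthase, the next enzyme, fell in all 3 tested copies, and MSTRG.7695 on 1DL stood at 75.9, 63.2 and 54.0 against 220, 208 and 173. The last enzyme, sulfoquinovosyl transferase SQD2 (MSTRG.27181, 3B), stood at 6.21, 2.92 and 6.93 against 93.2, 89.2 and 97.5, and at 68.2, 80.0 and 73.9 after partial removal. Non-specific phospholipase C1 (MSTRG.52046), which cleaves the head group from phospholipids, fell from 349, 352 and 272 to 128, 127 and 108. Phospholipase A(1) LCAT3 fell in 3 homoeologs by 2.25 to 2.46. Phosphatidylserine decarboxylase proenzyme 2, the enzyme that makes CDP-diacylglycerol and diacylglycerol kinase, enzymes of phospholipid synthesis and turnover, also fell in all 3 homoeologs of 1 chromosome group each.

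**Figure D4:**
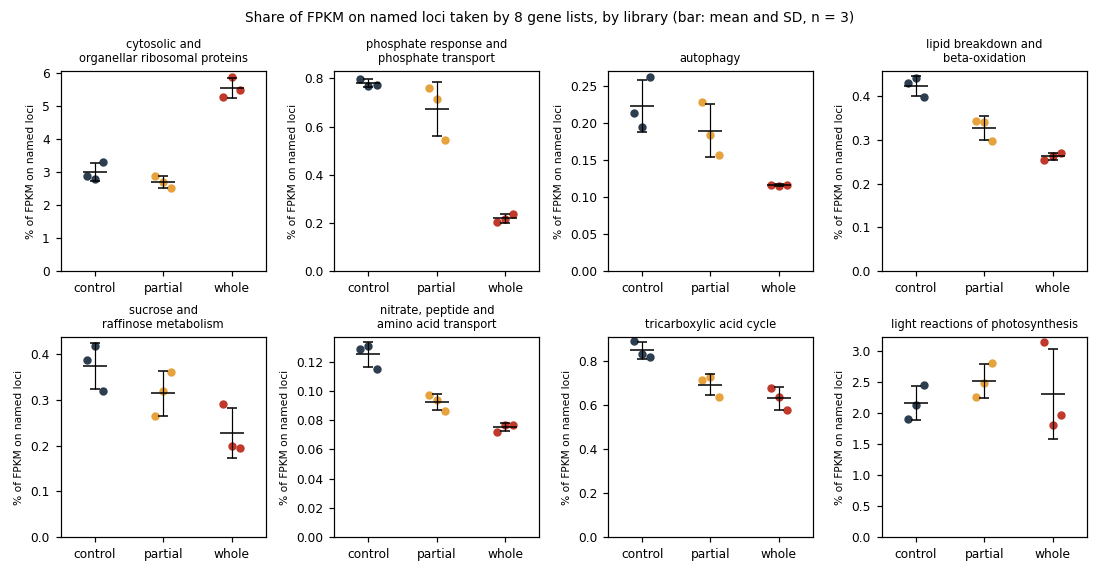
Percent of the FPKM on named loci taken by 8 gene lists in each leaf library, with dots for libraries and bars for the mean and SD (n = 3) in control, partial removal and whole removal. Ribosomal proteins lie at 5.28% to 5.88% after whole removal against 2.81% to 3.30% in controls, and phosphate response at a mean of 0.220% against 0.780%, while the light reactions overlap.

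Pyrophosphate is used in the cytosol in place of ATP by some enzymes of sugar breakdown. Pyrophosphate--fructose 6-phosphate 1-phosphotransferase, which runs the main control step of glycolysis with pyrophosphate in both directions, fell in 10 of 11 tested loci by 0.62 to 1.82. The count was 6 without control library 1, 5 without control library 2 and 6 without whole removal library 2. Its alpha subunit on 6DL (MSTRG.62412) stood at 1.36, 1.45 and 2.05 scaled FPKM against 7.63, 11.4 and 6.25. The ATP-dependent 6-phosphofructokinases had 3 higher and 3 lower of 18. Soluble inorganic pyrophosphatase 2, which splits pyrophosphate, fell in all 3 homoeologs, with summed values of 99.7, 65.8 and 66.3 against 202, 217 and 220. The chloroplastic soluble inorganic pyrophosphatase 6 rose in all 3, with 61.1, 69.1 and 63.0 against 34.9, 31.0 and 32.9. All 6 of these pyrophosphatase calls held on leaving out any 1 library. In the glycolysis list as a whole 22 of 114 genes fell (19.3%) and 5 rose (4.39%), against 10% and 10.9% of all genes. The lower count was 13 without control library 1 and 13 without control library 2.

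Genes of sucrose metabolism were called in one direction. In the list of sucrose and raffinose metabolism 16 of 36 members fell (44.4%, against 10% of all genes) and none rose, with a median of -0.58. The 3 homoeologs of probable sucrose-phosphate synthase 4 together held 25.2, 13.6 and 17.0 scaled FPKM against 93.7, 111 and 84.6, and 38.3 on average after partial removal. Of 23 trehalose genes, whose product trehalose-6-phosphate signals sucrose status in plants, 8 fell (34.8%) and 5 rose (21.7%). Of all genes 10% fell and 10.9% rose. The higher trehalose count was 2 or 3 without any 1 library but whole removal library 3. Plasma membrane ATPase, the proton pump that drives uptake of sugars and ions, fell in 3 homoeologs on group 1 chromosomes with summed values of 3.18, 3.55 and 4.57 against 12.3, 12.2 and 42.0. After partial removal this sum was 4.73 on average. Control library 3 lay well above the other controls, which themselves did not overlap with whole removal.

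Among genes of fatty acid breakdown more were called lower than higher, but most were not called. Malate synthase, which with isocitrate lyase forms the glyoxylate cycle, fell in all 3 homoeologs, with summed values of 1.23, 5.76 and 0.852 scaled FPKM against 35.4, 33.7 and 36.5. After partial removal the sum was 12.5, 9.93 and 6.38, between the other groups. Acyl-coenzyme A oxidase, the first step of beta-oxidation, fell in 4 of 10 loci, and on 7DS (MSTRG.74225) stood at 1.71, 3.68 and 1.99 against a control mean of 12.2 ± 1.89 (SD, n = 3). Probable acyl-CoA dehydrogenase IBR3, needed in Arabidopsis for the conversion of indole-3-butyric acid to auxin in peroxisomes, fell in 3 homoeologs from summed values of 80.0, 80.0 and 80.4 to 24.4, 30.6 and 27.0. In the list of lipid breakdown 18 of 86 genes fell (20.9%) and 5 rose (5.81%), against 10% and 10.9% of all genes. The list had 3 higher without control library 1 or whole removal library 1 or 2. Its share of the FPKM on named loci was 0.261% ± 0.00813 (SD, n = 3) against 0.422% ± 0.0233 in control leaves.

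A nitrate reductase gene was among the largest falls, and lists of nitrogen, water and potassium transport had more genes lower than all genes together. The list of nitrogen assimilation as a whole did not, with 3 of 32 tested members lower and 4 higher and a median of -0.04, and 1 or 2 higher without any 1 of the 6 libraries. Nitrate reductase turns nitrate into nitrite, and the gene on 6DS (MSTRG.64103) stood at 2.03, 1.64 and 1.13 scaled FPKM against 43.2, 38.5 and 25.9 (log2 -3.81 ± 0.21, adjusted p = 4.06e-05 in limma). After partial removal it stood at 16.1, 17.2 and 19.5, below all controls and above all libraries of whole removal. Both tested copies of molybdate transporter 2 fell, by 0.93 and 1.59, and molybdenum is part of the cofactor of nitrate reductase. Of 54 genes of nitrate, peptide and amino acid transport 18 fell (33.3%) and none rose, among them protein NRT1/ PTR FAMILY 3.1 (MSTRG.73830) by 1.07 ± 0.14 and the putative amino acid permease MSTRG.31137 by 0.94 ± 0.19. CBL-interacting serine/threonine-protein kinase 23 (MSTRG.19340), which in Arabidopsis acts on potassium and nitrate uptake, fell from 21.2, 20.6 and 26.8 to 5.29, 8.06 and 8.36. Of 76 potassium transport genes 20 fell (26.3%, against 10% of all genes) and 1 rose. Aquaporins are water channels, and 6 of 11 fell and none rose. The vacuolar aquaporin TIP2-1 (MSTRG.68301, 7BL) fell from 53.5, 73.1 and 43.3 to 4.45, 2.47 and 4.29.

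Genes of photosynthesis were called higher at about the share of all genes. Fewer were called lower, and the medians of the light reactions and the Calvin cycle were positive. The list of light reactions held 163 tested genes, with 22 higher (13.5%, against 10.9% of all genes). In that list 3 were lower (1.84%, against 10%), and the median was 0.29. The higher count of light reactions was 11 without control library 1 and 13 without whole removal library 1 or 3. Their share of the FPKM on named loci was 2.30% ± 0.729 (SD, n = 3) against 2.16% ± 0.278, and the groups overlapped. In the Calvin cycle 2 of 22 rose (9.09%) and none fell, with a median of 0.78. Set against the control mean, its library medians were 1.53, 0.35 and 0.55 after whole removal. In control leaves they were 0.07, 0.67 and -0.82, so the groups overlapped. Rises that held in all 3 homoeologs were found for transcription activator GLK2, a regulator of chloroplast development, with summed values of 10.9, 8.91 and 12.6 scaled FPKM against 2.65, 4.56 and 1.88. The catalytic chain of ferredoxin-thioredoxin reductase, which passes light-driven electrons to stromal enzymes, stood at 74.1, 60.2 and 53.3 against 30.1, 34.1 and 27.6. The homoeologs of 1,4-dihydroxy-2-naphthoyl-CoA synthase, an enzyme of phylloquinone synthesis, rose by 0.88 to 1.11. Among genes of leaf ageing, NAC transcription factor 29 (MSTRG.13570, 2AS), whose Arabidopsis counterpart promotes senescence, fell from 13.7, 10.9 and 21.0 to 1.85, 2.58 and 2.79 (log2 -2.21 ± 0.32, adjusted p = 0.00216 in limma). Pheophytinase (MSTRG.72931), which removes the phytol tail in chlorophyll breakdown, stood at 38.6, 48.0 and 19.0 against 139, 108 and 73.6, and its call was lost without control library 1 or 2.

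Among signalling genes most lists had more falls than rises. Of 283 disease resistance genes 46 fell (16.3%) and 3 rose (1.06%), against 10% and 10.9% of all genes. There were 26 lower without control library 1, 27 without control library 2 and 28 without whole removal library 2. In the list of jasmonate and lipoxygenases 12 of 41 fell (29.3%, against 10% of all genes) and 2 rose (4.88%, against 10.9%). The lipoxygenase homoeologs on group 2 chromosomes together held 2.67, 2.83 and 2.30 scaled FPKM against 10.5, 9.43 and 14.6, and 2.19 on average after partial removal, whereas the 6AS lipoxygenase rose as given above. Calcium signalling had 22 of 108 lower (20.4%, against 10% of all genes) and 6 higher (5.56%, against 10.9%). The lower count was 12 without control library 1 and 14 without whole removal library 1, and the higher count was 2 or 3 without control library 2 or 3 or whole removal library 1 or 2. Auxin genes had 20 of 134 lower and 16 higher, and abscisic acid genes 18 of 140 lower and 12 higher, shares near those of all genes. The auxin lower count was 11 without control library 1 or 2, 13 without whole removal library 2 and 10 without whole removal library 3, and 7 abscisic acid genes rose without whole removal library 3. MYBS3 (MSTRG.869), known in rice as a repressor of alpha-amylase genes under sugar supply control, fell from 14.9, 13.6 and 14.1 to 2.99, 2.78 and 5.10.

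Among all 540 GO terms with 20 to 1000 tested genes, 69 had over 20% of their genes higher and 75 had over 20% lower, with 3 in both. Over all genes tested 10.9% were higher and 10% lower. Outside the subjects above, cellulose biosynthesis had 12 of 38 genes higher (31.6%) and 3 lower, and magnesium ion transport had 7 of 25 higher and 2 lower. The magnesium count was 3 without control library 2 and 4 without control library 3 or whole removal library 1. The myosin complex, the motor proteins that move along actin, had 10 of 23 genes lower (43.5%) and none higher, with 7 to 12 lower when 1 library was left out. Oxidoreductases acting on CH-CH groups had 19 of 46 lower and 1 higher, with 10 lower without control library 1 and 10 without whole removal library 3. The plant-type vacuole membrane had 10 of 29 lower and 2 higher. Embryo sac development had 13 of 45 higher and 1 lower, and the higher count was 8 without control library 1, 7 without control library 2, 6 without whole removal library 1 and 4 without whole removal library 2.

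Bread wheat carries 3 related genomes, so most genes exist as homoeologs on A, B and D chromosomes. There were 1023 triads, sets of 3 tested genes with 1 copy per genome in the same chromosome group and one description not shared by other tested genes of that group. Throughout, such copies are called homoeologs by description and chromosome group alone. This was not checked by sequence, so a set can hold other related genes. In 659 no copy was called. All 3 copies rose in 52 and all 3 fell in 33, while 1 copy alone rose in 110 and fell in 64, and 2 copies rose in 57 and fell in 44. Of all copies in triads 20.9% were called, the same share as over all genes. Without control library 1 or 2 or whole removal library 1 or 2 all 3 copies rose in 25, 33, 33 and 29 triads, and without whole removal library 3 all 3 fell in 21. Homoeologs are alike in sequence and a read may be placed on the wrong one, so the values of single copies are less certain than their sum.

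**Figure D5:**
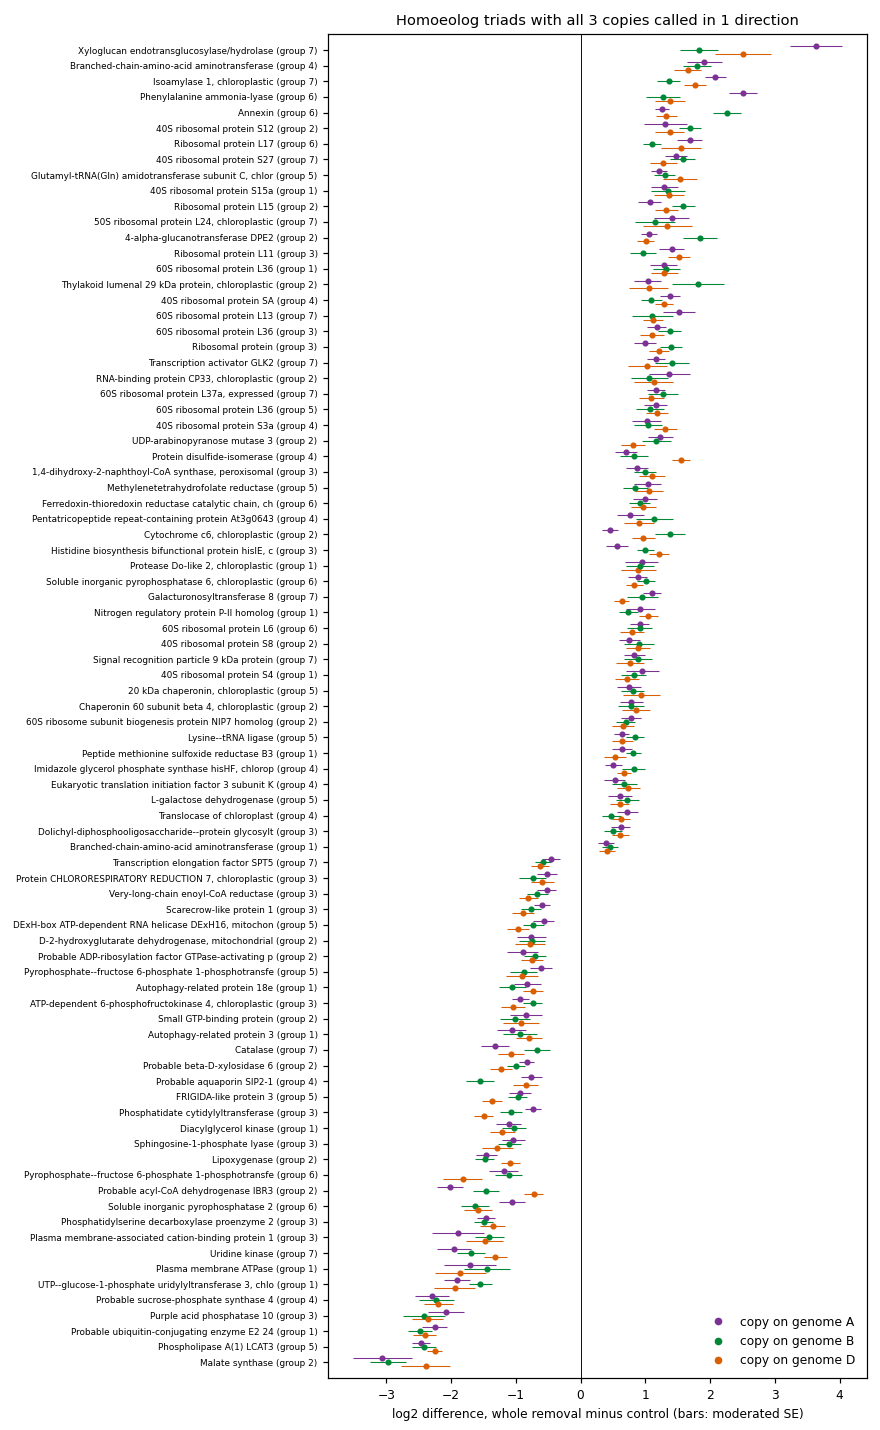
Log2 difference of whole removal minus control (horizontal, bars give the moderated SE) for each copy of the 85 triads in which all 3 copies were called in 1 direction, coloured by genome. The 52 triads right of the line at 0 rose and the 33 left of it fell, from malate synthase at a mean of -2.81 to a xyloglucan endotransglucosylase/hydrolase at 2.66.

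Copies were called in opposite directions in 4 triads, and whether these are true homoeologs was not tested. The inositol transporter described as probable inositol transporter 2 rose in its 2AL copy (MSTRG.10390) from 1.14, 1.05 and 0.616 scaled FPKM to 1.71, 1.83 and 1.69. Its 2BL copy (MSTRG.15037) fell from 1.87, 2.17 and 1.35 to 0.147, 0.0918 and 0.0396, and its 2DL copy (MSTRG.20270) from 1.66, 2.00 and 1.11 to 0.280, 0.0935 and 0.104. The A copy was the lowest of the 3 in every control library and the highest in every library of whole removal, and its own call was lost in 3 of 6 fits without 1 library. The rhodanese-like domain-containing protein 11 of the chloroplast rose on 6AL (MSTRG.56826) by 1.06 ± 0.19 and fell on 6BL (MSTRG.59867) by 0.82 ± 0.21. Jasmonic acid-amido synthetase JAR1, which joins jasmonate to isoleucine, rose on 1DL (MSTRG.7414) from 2.08, 2.44 and 0.728 to 9.47, 3.39 and 8.20 and fell by 0.40 ± 0.12 on 1BL (MSTRG.3798). Glutamine synthetase rose on 6AL (MSTRG.55403, adjusted p = 0.0464 in limma) and fell on 6DL (MSTRG.62537, adjusted p = 0.0472). In the last triad both calls were lost in 4 of 6 fits without 1 library, and the JAR1 call on 1BL in all 6.

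Partial removal shares its control leaves with whole removal, so the values are set side by side without a test between them. For ribosomal proteins, phosphate response, pyrophosphatase 2 and uridine kinase the partial removal means lay near or on the far side of the control means. For nitrate reductase, malate synthase, the 7AL xyloglucan enzyme and sucrose-phosphate synthase 4 they lay between control and whole removal, and for plasma membrane ATPase and the group 2 lipoxygenases they lay at 4.73 and 2.19, close to the whole removal means of 3.76 and 2.60.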

How the data were processed

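The authors deposited FPKM per gene for 18 libraries, of which 9 from flag leaves were used. The submitters' processing notes name HISAT, StringTie and edgeR without versions, and the genome build and strand are not given in the sources used here. FPKM keeps no depth, so no counting interval is given and precision rests on the spread between libraries. All columns were mapped to samples by their titles.

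Each library was scaled by the median, over 70849 genes detected in all 9 leaf libraries, of its ratio to the gene's geometric mean. Log2(scaled FPKM + 1) was fitted with limma 3.58.1 in R 4.3.3 with 1 mean per leaf group and a variance trend, and the contrast of whole removal minus control was taken over 46758 genes. The added 1 understates changes of weak genes. Differences are given on that log2 scale with limma's moderated SE. The procedure was tested on simulated data. Alternatives were no scaling, quantile normalization, ratios over named genes, a pseudocount of 0.1, no filter, an FPKM of at least 5, the 6 libraries alone, a replicate block and each library left out. Ratios over tested genes only were added after seeing the data.

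Gene descriptions covered 15.1% of tested genes and GO terms 52.5%. There were 70 gene lists made of description words and GO names. The members and lists were chosen with earlier results of these data known. Named genes were, among described calls whose groups do not overlap and whose higher mean is at least 5 scaled FPKM, the 15 largest rises and falls, once per description, and for each list the called members with the largest change and the highest group mean under the same conditions. Triads, families and GO members were named after their values were seen. No list was tested as a set. No genome or sequence was used.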

Additional observations from a re-analysis of the deposited data

How the results depend on the processing

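Without scaling 7398 genes were lower. With a pseudocount of 0.1, 5760 genes changed at least 2-fold and 2698 of them were lower. With an FPKM of at least 5 in 3 libraries 16517 genes were tested and 5006 were called, 2579 higher and 2427 lower, and 2367 changed at least 2-fold, 1353 higher and 1014 lower, with fewer genes tested by construction. The main fit also takes its spread from the partial removal libraries. With the 6 compared libraries alone 7932 genes were called, 4212 higher and 3720 lower, and 7581 of them were also called in the main test. Leaving out 1 library gave 6216 to 9622 calls, with 3375 to 4993 higher and 2824 to 4629 lower. The cause of these shifts was not tested. Every gene called both in the main test and under an alternative kept its direction. Whether the library numbers of the labels pair the samples is not stated. Deviations of libraries with the same number correlated at 0.12, -0.17 and 0.09, and those with unlike numbers at -0.25 to 0.20. Deviations from a mean of 3 libraries depend on each other, so these values cannot decide it. With the number as a replicate block 8353 genes were called, 4366 higher and 3987 lower. Of 105 named genes 60 were called in all settings and 45 lost their call in at least 1 fit without 1 library. The medians of 17 of 70 lists changed sign with scaling. The list of heat stress factors had no gene left at an FPKM of at least 5. Limits are the 3 libraries a group, unknown depth, sparse descriptions and reads shared between homoeologs.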

Other observations

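Some gene groups moved outside the subjects of the report. The list of flavonoids, which includes pigment and sunscreen enzymes, had 9 of 28 members higher (32.1%, against 10.9% of all genes) and none lower. The count was 4 without control library 1 and 5 without whole removal library 2. The list also holds the nitrogen regulatory protein P-II homolog, a sensor of carbon and nitrogen status, so its risers are not flavonoid enzymes alone. All 3 homoeologs of this sensor were called higher. Together they held 20, 20.2 and 23.6 scaled FPKM after whole removal against 9.86, 8.28 and 10.8 in control leaves. Fatty acid synthesis had 23 of 101 higher (22.8%) and 12 lower (11.9%). Its higher count was 14 or 15 without control library 1 or 2 or whole removal library 1 or 2.

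Catalase, which removes hydrogen peroxide in peroxisomes, split by chromosome. The 6DS copy (MSTRG.64346) rose from 19.1, 51.4 and 13.8 scaled FPKM to 103, 70.4 and 91.5, a call lost without control library 1. The 3 homoeologs on group 7 chromosomes fell, with summed values of 88.7, 86.1 and 68.2 against 171, 162 and 155. Of the 8 tested catalase loci 4 fell, and 2 fell without control library 1 or 2 or whole removal library 2 or 3. The transcription factor list of homeobox and GRAS proteins was small, with 5 of 7 members lower (71.4%, against 10% of all genes) and none higher. Scarecrow-like protein 1, a GRAS protein, fell in 3 homoeologs with 20.1, 16 and 16.5 against 33.6, 34.1 and 28.9.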
